A study of Mus musculus with 16 samples.

Results

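Forkhead transcription factors known from endothelium were followed in mouse lung microvascular endothelial cells (MLECs) that received BMP9 with or without endoglin on their surface. They are *Foxc1*, *Foxc2*, *Foxf1*, *Foxo1*, *Foxo3*, *Foxp1* and *Foxa3*, 7 of the 55414 genes in the deposited count table, and they were taken by name, with earlier results of these data known. All 7 were found in the table under their symbols. RNA was sequenced from 16 libraries in 4 groups of 4. Ctrl cells were treated with PBS or with sENG(M):BMP9, the complex of monomeric soluble endoglin and BMP9, with soluble endoglin in large excess. KO cells were treated with PBS or with pro:BMP9, in which the prodomain is still attached to BMP9. Treatment lasted 90 min after overnight serum starvation, at 0.2 ng/ml in terms of the BMP9 growth factor domain for either ligand. The cells of all groups came from mice of a C57BL/6 background that carry *Rosa26-CreERT2*, *Eng* fl/fl and the Immorto transgene, and KO cells lost *Eng* through 4-OH-tamoxifen in culture while Ctrl cells had vehicle. CreERT2 driven from *Rosa26* is not restricted to a cell type. Ctrl cells thus carry the floxed alleles, the recombinase and the transgene too, and the age of the mice is not given in the sources used here. MLECs were selected with CD31-coated and then ICAM2-coated beads. They were cultured with interferon-γ and the compound SB431542, which were left out from seeding on. Each of 4 isolations supplied all 4 groups, so libraries of one isolation were compared with each other. *Eng* loss cannot be told apart from tamoxifen exposure, and genotype cannot be told apart from the form of the ligand in any comparison of KO and Ctrl cells with ligand.

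Forkhead (Fox) proteins share the winged-helix DNA-binding domain and are grouped by letters after the similarity of that domain. In endothelium, BMP9 signals through the type I receptor ALK1 (*Acvrl1*) with a type II receptor and the co-receptor endoglin, and receptor-activated SMAD proteins then enter the nucleus and change transcription. FOXC1 and FOXC2 act in arterial and lymphatic development, FOXF1 is a factor of lung mesenchyme and of the lung microvasculature, FOXO1 and FOXO3 are held out of the nucleus by AKT and restrain growth and metabolism, FOXP1 is mainly a repressor, and FOXA3 is best known from liver and gut.

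Library totals lay between 14869115 and 17242117 counts, and 15693 genes had enough counts for a test. The tests are edgeR quasi-likelihood tests on all 16 libraries with the isolation as a block, with p-values adjusted by Benjamini-Hochberg over the 15693 genes and a threshold of 0.05. Levels are CPM, counts scaled to a common TMM-normalised library size, and levels of different genes are set side by side only as CPM per kilobase of the deposited gene length. As a check of the labels, *Eng* had 632 to 1017 counts in KO PBS and 1667 to 2063 in KO pro:BMP9 libraries, against 6253 to 9039 in Ctrl PBS and 9023 to 11585 in Ctrl sENG(M):BMP9 libraries. All 14 endothelial markers were detected, among them *Cdh5* and *Pecam1*, with a summed level of 3727 to 8426 CPM. All 6 lymphatic endothelial markers were detected too, with sums of 3586 to 7396 CPM. By group mean *Lyve1* had 3971 to 4454 CPM of this and *Prox1* 28.6 to 34.9 CPM. The 7 leukocyte markers had sums of 38.0 to 54.3 CPM. The 13 fibroblast and mural markers were detected as well, with sums of 132 to 156 CPM in isolation 2 and 477 to 979 CPM in the others. Of the 10 epithelial markers, 7 exceeded the floor of 3 counts used here in a library, and the list had a summed level of 64.8 to 236 CPM. *Sftpc* had no count in any library, which at that floor limits its level and does not show that it is absent. In such bulk libraries fewer cells of a type and less RNA per cell cannot be told apart.

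Most genes of the set rose with ligand. *Foxc1*, *Foxc2*, *Foxf1* and *Foxo1* were higher after ligand in both genotypes, and *Foxo3* and *Foxp1* passed the test in neither. These are 4 of the 6 genes that were well detected in PBS, in each response, where 5.86% of all tested genes were called higher in Ctrl cells and 3.68% in KO cells (3.83% and 1.92% were called lower, and 9.69% and 5.59% in either direction). Because of how the genes were chosen the count describes them and is not independent evidence. *Foxa3* passed the filter on low counts only through its ligand-treated libraries and is described apart. Without ligand, 0 of 7 genes differed between KO and Ctrl cells by edgeR (0 of 7 also at an unadjusted p under 0.05 and by DESeq2), against 0.0191% of all genes. At an unadjusted edgeR p under 0.05 there were 1071 of all 15693 tested genes. With ligand, *Foxc2* was lower in KO than in Ctrl cells, 1 of 7 genes, against 0.166% of all genes called lower and 0.0892% called higher. The 2 comparisons with ligand share libraries with the 2 responses, so their values are given side by side and are not independent of one another.

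**Figure D1:**
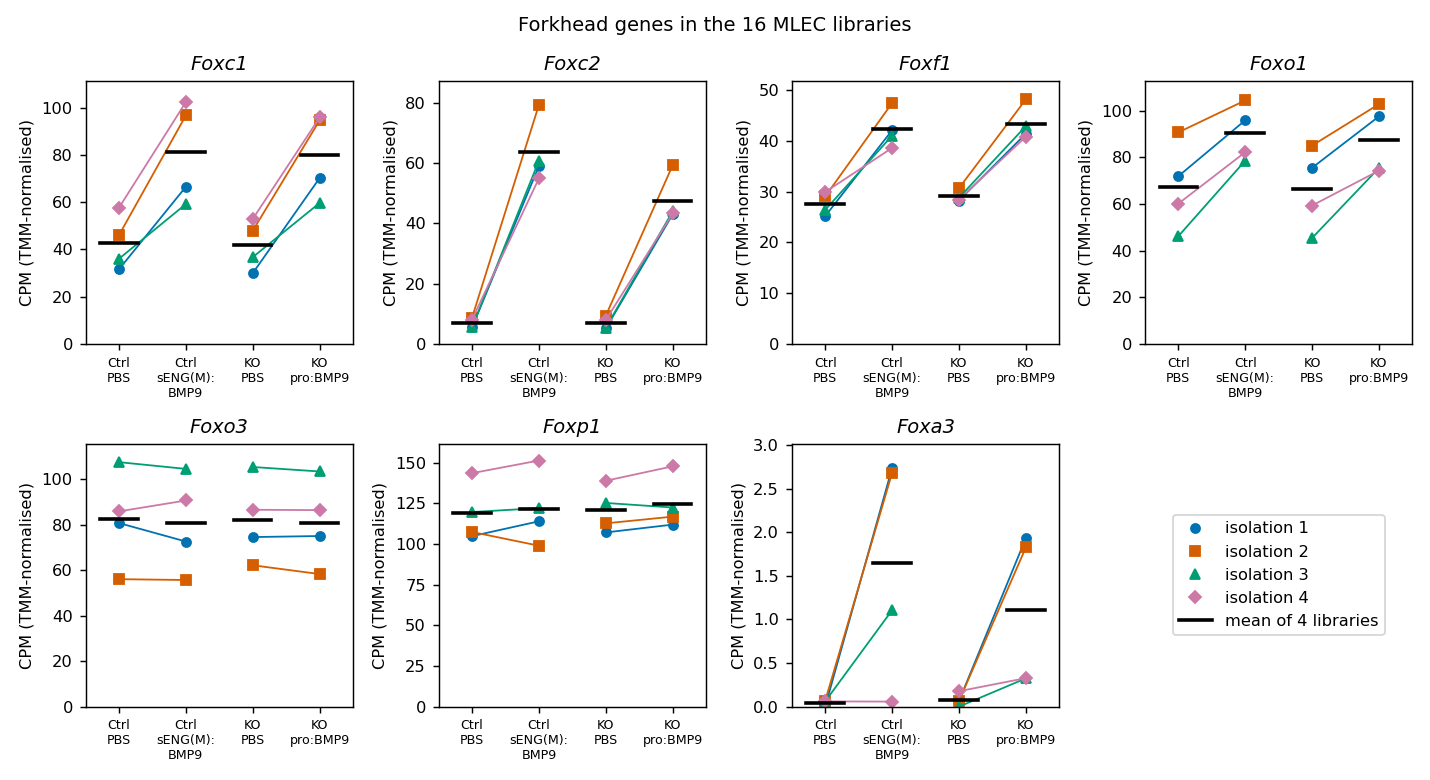
TMM-normalised CPM (y axes, from 0) of the 7 forkhead genes in each library, by group on the x axes. Points of one colour and shape are 1 isolation, coloured lines join PBS and ligand of the same isolation and genotype, and black bars are the means of 4 libraries; *Foxc2* moves from 5.46 to 8.74 CPM up to 54.9 to 79.4 CPM in Ctrl cells, while *Foxo3* and *Foxp1* differ between isolations more than between groups.

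*Foxc2*, which is needed for lymphatic valves and whose human counterpart is mutated in lymphoedema-distichiasis, had the largest fold change of the 6 genes that were well detected in PBS. The gene (ENSMUSG00000046714) lies at GRCm39 chr8:121842910-121845634 on the plus strand and consists of 1 exon. In Ctrl PBS libraries it had 85, 133, 91 and 134 counts in isolations 1 to 4, or 5.52, 8.74, 5.46 and 8.10 CPM. With sENG(M):BMP9 the same isolations had 994, 1185, 1046 and 951 counts, or 59.1, 79.4, 60.8 and 54.9 CPM. Every treated library stood far above every PBS library, and isolation 2 was the highest before and after ligand. The mean went from 6.95 ± 1.71 to 63.5 ± 10.8 CPM (SD, n = 4), a log2 fold change of 3.19 (SE 0.101, edgeR adjusted p = 1.19e-13), or 9.15-fold. In KO cells the counts were 81, 144, 90 and 135 in PBS and 624, 943, 679 and 662 with pro:BMP9, so the ranges were again apart. The KO means were 6.98 ± 2.06 and 47.4 ± 7.95 CPM (SD, n = 4), a log2 fold change of 2.77 (SE 0.102, edgeR adjusted p = 1.94e-12), or 6.81-fold. Within single isolations the response ran from 2.74 to 3.45 log2 units in Ctrl cells and from 2.42 to 3.04 in KO cells, lowest in isolation 4 both times. By fold change *Foxc2* stood in place 10 of all tested genes in each response.

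Only *Foxc2* of the set was called between KO and Ctrl cells, with ligand, where genotype and ligand form cannot be told apart. In PBS its levels in KO cells were 93.0%, 108%, 99.1% and 98.3% of those in Ctrl cells in isolations 1 to 4, with a fitted log2 difference of 0.00 (95% interval -0.27 to 0.27). With ligand they were 72.9%, 74.8%, 72.4% and 78.8%, lower in 4 of 4 isolations. KO libraries held 43.1, 59.4, 44.1 and 43.3 CPM in that comparison, and because isolation 2 was high in both genotypes the ranges of the groups overlap although every isolation went down. The log2 difference was -0.42 (SE 0.0803, 95% interval -0.59 to -0.25, edgeR adjusted p = 0.0306). This call depends on which isolations enter and on the block: the adjusted p was 0.188 without isolation 1, 0.15 without isolation 2, 0.108 without isolation 3 and 0.00247 without isolation 4, and 1.00 with no block. The size of the difference moved little, between -0.45 and -0.41 under all alternatives. DESeq2 with the block called it as well, with an adjusted p of 0.00428. The difference of the 2 responses sets the response of KO cells to pro:BMP9 against that of Ctrl cells to sENG(M):BMP9. It was -0.43 (95% interval -0.75 to -0.11) and negative in 4 of 4 isolations. Its edgeR adjusted p was nonetheless 1.00 (unadjusted p = 0.0119). By edgeR or DESeq2 0 of all tested genes passed that test, while 565 had an unadjusted edgeR p under 0.05. Among the 78 genes called at least 2-fold higher with both ligands the median difference of responses was -0.22, 64 of the 78 were negative, and *Foxc2* took place 18 from the lowest.

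Some fibroblast and mural markers moved with this difference between KO and Ctrl cells. With ligand 3 of the 13 were lower in KO cells, *Col3a1* by -0.47, *Dcn* by -0.61 and *Pdgfrb* by -0.29 on the log2 scale, and the median of the list was -0.30 against 0.00 for all genes tested. *Col3a1* and *Dcn* were lower in PBS too, where *Foxc2* differed by 0.00. The summed level of the list ranged from 156 to 978 CPM in Ctrl sENG(M):BMP9 and from 132 to 838 CPM in KO pro:BMP9 libraries. In isolation 2, where that sum was 156 CPM in Ctrl and 132 CPM in KO cells, *Foxc2* in KO cells was at 74.8% of Ctrl. The part of these cells in the *Foxc2* difference was not tested.

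*Foxc1*, the paralogue that acts with *Foxc2* in vascular development, rose about as much in both genotypes. It is a gene of 1 exon (ENSMUSG00000050295, chr13:31990616-31996459, plus strand). Ctrl libraries had 31.6, 46.0, 36.1 and 57.6 CPM in PBS and 66.5, 96.7, 59.2 and 102 CPM with sENG(M):BMP9 in isolations 1 to 4. Each treated library exceeded each PBS library, with isolations 2 and 4 high and 1 and 3 low throughout. The log2 fold change was 0.92 (SE 0.0705, edgeR adjusted p = 3.15e-08), and the means were 42.8 ± 11.6 and 81.2 ± 21.5 CPM (SD, n = 4). KO libraries had 30.0, 47.9, 36.7 and 52.9 CPM in PBS and 70.2, 94.7, 59.7 and 95.9 CPM with pro:BMP9. The groups were apart here as well, with a log2 fold change of 0.94 (SE 0.0709, edgeR adjusted p = 4.15e-08) and means of 41.9 ± 10.4 and 80.1 ± 18.0 CPM (SD, n = 4). With ligand KO differed from Ctrl cells by -0.01 (95% interval -0.15 to 0.13), higher in 2 and lower in 2 isolations, so a *Foxc1* difference as large as that of *Foxc2* lies outside the interval.

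The balance of both FoxC transcripts therefore turned over. Per kilobase, *Foxc2* stood at 0.375, 0.407, 0.325 and 0.301 of *Foxc1* in Ctrl PBS libraries, a mean ratio of 0.352 ± 0.0478 (SD, n = 4), and at 1.90, 1.76, 2.20 and 1.15 with sENG(M):BMP9, a mean of 1.75 ± 0.443. *Foxc2* was below *Foxc1* in every Ctrl PBS library and above it in every treated one. In KO cells the ratio went from 0.357 ± 0.0487 to 1.30 ± 0.253 (SD, n = 4), and isolation 4 stayed below parity with 0.968. The summed level of both transcripts went from 9.88 ± 2.52 to 37.2 ± 6.10 CPM per kilobase in Ctrl cells and from 9.73 ± 2.47 to 31.1 ± 5.22 in KO cells (SD, n = 4). Per-kilobase levels rest on the deposited gene lengths, 5844 bases for *Foxc1* and 2725 for *Foxc2*.

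**Figure D2:**
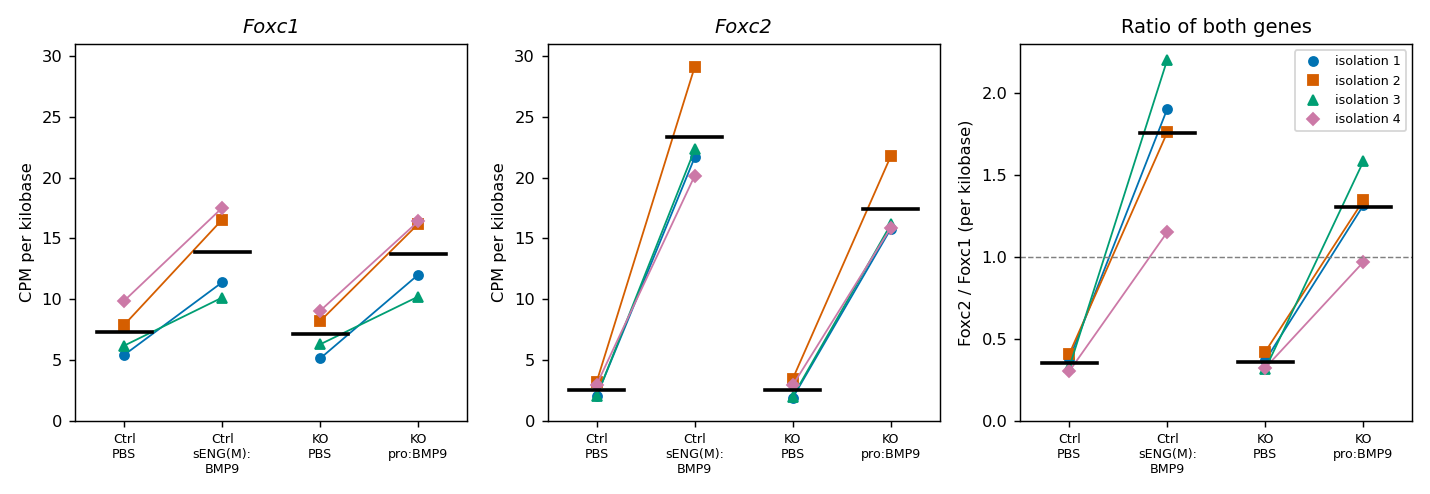
Level of *Foxc1* and *Foxc2* in CPM per kilobase on the same y scale, and the ratio of *Foxc2* to *Foxc1* (right, dashed line at 1), by group, with isolations by colour and group means as black bars. The ratio lies between 0.301 and 0.421 in all PBS libraries and between 0.968 and 2.20 in all ligand-treated libraries.

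*Foxf1*, a factor that endothelium of the lung capillaries requires and whose human counterpart is mutated in alveolar capillary dysplasia, rose less than the FoxC genes. It lies on the plus strand of chromosome 8 at chr8:121811125-121814883 (ENSMUSG00000042812) and has 2 exons. In Ctrl cells it had 25.2, 29.0, 26.4 and 29.9 CPM in PBS and 42.1, 47.4, 41.0 and 38.6 CPM with sENG(M):BMP9. KO libraries had 28.2, 30.7, 28.8 and 28.4 CPM in PBS and 41.4, 48.1, 42.9 and 40.8 CPM with pro:BMP9. Treated and untreated libraries did not overlap in either genotype, and the spread between isolations was the smallest of the set. The log2 fold change was 0.61 (SE 0.0575, edgeR adjusted p = 4.75e-07) in Ctrl and 0.58 (SE 0.0573, edgeR adjusted p = 1.66e-06) in KO cells. Both calls held under each alternative tried, the fit with no block included. KO and Ctrl cells with ligand differed by 0.04 (95% interval -0.08 to 0.15), and the difference of responses was -0.04 (95% interval -0.21 to 0.14).

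Of the 6 genes well detected in PBS, *Foxc1*, *Foxc2* and *Foxf1* had treated libraries that all exceeded all PBS libraries, in Ctrl as in KO cells. Among all tested genes 2.51% did so in Ctrl cells and 1.82% in KO cells.

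*Foxf1* and *Foxc2* are neighbours, with starts 31.785 kb apart on the same strand. *Mthfsd*, which lies between them on the opposite strand, had a log2 change of 0.02 in the Ctrl response (edgeR adjusted p = 0.896) and of -0.02 in the KO response (edgeR adjusted p = 0.949). Both forkhead genes thus rose around a gene that was not called. *Fendrr*, a long non-coding RNA that starts next to *Foxf1* and is transcribed away from it, had log2 changes of 0.30 (SE 0.148, edgeR adjusted p = 0.278) and 0.32 (SE 0.149, edgeR adjusted p = 0.333). *Foxl1*, the third forkhead gene of the cluster, had 1 to 14 counts a library and was not tested. An unnamed miRNA gene, ENSMUSG00002075068, lies inside *Foxf1* on the opposite strand and had 7 to 33 counts a library, with log2 changes of 1.22 (edgeR adjusted p = 0.0171) in Ctrl and 0.51 (edgeR adjusted p = 0.496) in KO cells. The libraries keep strand, but whether counting used it is not stated, so these reads and those of *Foxf1* cannot be told apart.

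**Figure D3:**
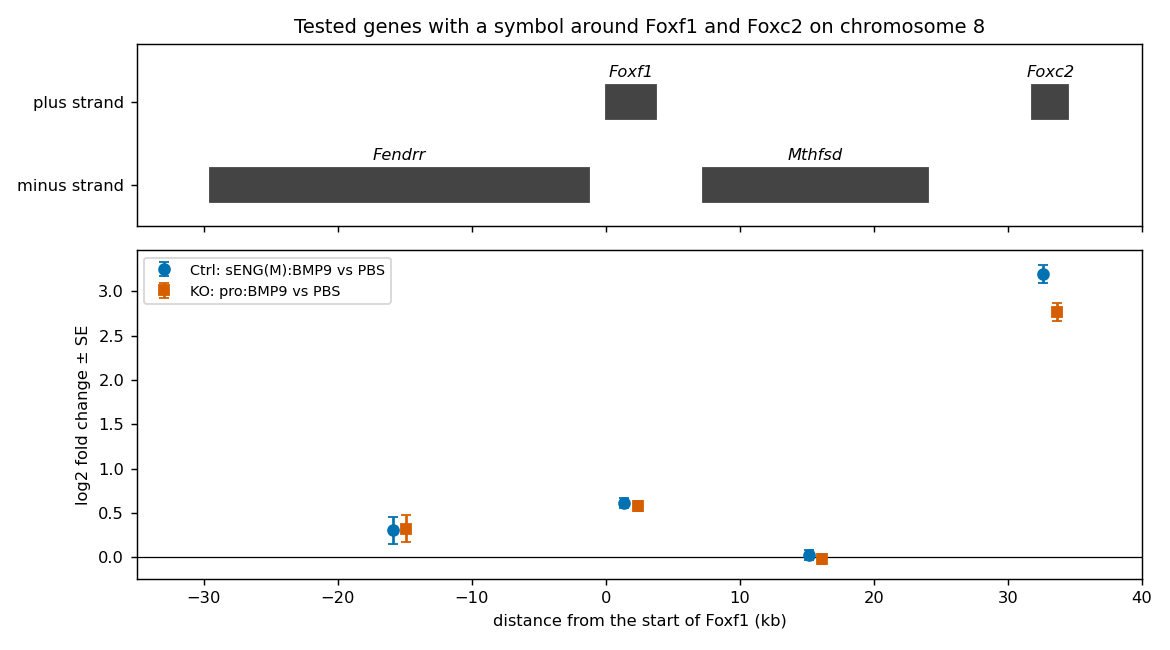
Map of the tested genes with a symbol around *Foxf1* and *Foxc2* on chromosome 8 (top, by strand) and their log2 fold changes with ligand in edgeR ± SE (bottom), against the distance from the start of *Foxf1* in kb, with circles for Ctrl and squares for KO cells. *Foxf1* and *Foxc2* lie above 0 and *Mthfsd* between them lies at 0.02 and -0.02.

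No tested neighbour of the other genes was called. *Gmds*, the one tested gene in the 100 kb window of *Foxc1*, had log2 changes of -0.02 in both responses. Windows run from the lower coordinate of each gene on its chromosome to that of its neighbours, whatever the strand. *Gmds* lies on the minus strand, so its 3′ end and not its 5′ start is near *Foxc1*. Around *Foxa3*, 9 of 14 genes in that window were tested (*Sympk*, *Dmwd*, *Nova2*, *Irf2bp1*, *Dmpk*, *Six5*, *Mypop*, *Mypopos* and *Gm10676*), and 0 of 9 were called in either response by edgeR or DESeq2, with 3 in Ctrl and 1 in KO cells at an unadjusted edgeR p under 0.05. Among all 15693 tested genes, 3072 in the Ctrl and 2215 in the KO response had such a p. Near *Foxo1* the antisense transcript *Gm20402*, which overlaps 674 exonic bases of *Foxo1*, was tested and had log2 changes of 0.40 (edgeR adjusted p = 0.511) and 0.30 (edgeR adjusted p = 0.754). No tested gene lay in the windows of *Foxo3* and *Foxp1*. Both genes are on the minus strand, so these windows are centred on their 3′ ends. The surroundings of their 5′ starts were not covered in full, and the 5′ start of *Foxp1* lies outside its window.

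*Foxo1*, which keeps endothelium quiescent and is itself controlled mainly by AKT phosphorylation of its protein, rose by a smaller amount. It lies at chr3:52175757-52260642 on the plus strand (ENSMUSG00000044167). In Ctrl cells it had 71.9, 90.8, 46.2 and 60.2 CPM in PBS and 96.0, 104, 78.6 and 82.3 CPM with sENG(M):BMP9. KO cells had 75.6, 85.1, 45.4 and 59.4 CPM in PBS and 97.6, 103, 75.5 and 74.4 CPM with pro:BMP9. It went up in 4 of 4 isolations of each genotype, but isolation 2 in PBS already exceeded the treated libraries of isolations 3 and 4, so the groups overlap. The log2 fold change was 0.45 (SE 0.0738, edgeR adjusted p = 0.000284) in Ctrl and 0.42 (SE 0.0742, edgeR adjusted p = 0.00107) in KO cells. Isolation 3, the lowest in PBS, had the largest change, 0.77 and 0.73 log2 units, and isolation 2, the highest, the smallest, 0.20 and 0.27. KO and Ctrl cells with ligand differed by -0.05 (95% interval -0.20 to 0.10).

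*Foxo3*, the second FOXO gene of the set (ENSMUSG00000048756, chr10:42057837-42152751, minus strand), did not pass the test in any comparison. In Ctrl cells it had 80.8, 56.1, 108 and 85.9 CPM in PBS and 72.7, 55.7, 105 and 90.7 CPM with sENG(M):BMP9. In KO cells it had 74.6, 62.2, 105 and 86.6 CPM in PBS and 75.1, 58.3, 103 and 86.5 CPM with pro:BMP9. Isolation 3 was the highest and isolation 2 the lowest in all 4 groups, whatever the treatment. The log2 changes were -0.03 in each response, with 95% intervals of -0.12 to 0.06 in Ctrl and -0.12 to 0.07 in KO cells, so a change as large as that of *Foxo1* lies outside both. The isolations held 97.9% of the variance of its log2 CPM and the groups 0.229%, and the mean of isolation 3 was 1.81-fold that of isolation 2. Fibroblast and mural marker sums were lowest and endothelial sums highest in isolation 2, and their part in the *Foxo3* level was not tested.

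*Foxp1*, a forkhead repressor with a zinc finger and a leucine zipper beside the forkhead domain, was level as well. It lies at chr6:98902299-99499682 on the minus strand (ENSMUSG00000030067). Ctrl cells had 105, 107, 120 and 144 CPM in PBS and 114, 98.9, 122 and 151 CPM with sENG(M):BMP9. KO cells had 107, 113, 125 and 139 CPM in PBS and 112, 117, 122 and 148 CPM with pro:BMP9. Isolation 4 was the highest in every group, and the ranges of PBS and treated libraries overlapped in both genotypes. The log2 changes were 0.03 (95% interval -0.07 to 0.13) in Ctrl and 0.04 (95% interval -0.05 to 0.14) in KO cells, and isolations held 89.8% of the variance of its log2 CPM.

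*Foxa3*, a hepatic and intestinal factor, was close to undetected in PBS and appeared with ligand in part of the isolations. It lies at chr7:18747209-18757463 on the minus strand (ENSMUSG00000040891). Ctrl libraries had 0, 1, 1 and 1 counts in PBS and 46, 40, 19 and 1 with sENG(M):BMP9. KO libraries had 1, 1, 0 and 3 counts in PBS and 28, 29, 5 and 5 with pro:BMP9. Isolations 1 and 2 carried most of the counts, and isolation 4 had 1 count with ligand in Ctrl cells, no more than in PBS. Summed over isolations and scaled by library size, 106 against 3 counts gave a ratio of 34.0 (95% exact interval 11.3 to 168) in Ctrl cells, and 67 against 5 counts gave 14.2 (95% exact interval 5.78 to 45.1) in KO cells. These intervals cover counting error only. The gene passed the filter on low counts only through the ligand-treated libraries, so a higher value with ligand was partly set by that filter and the ratios stand as a description. Its fitted fold change depends on a prior count and is not used. With ligand the summed KO level was 0.686 of the Ctrl level (95% exact interval 0.497 to 0.940), lower in 3 of 4 isolations, but across libraries the edgeR adjusted p was 0.766.

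**Figure D4:**
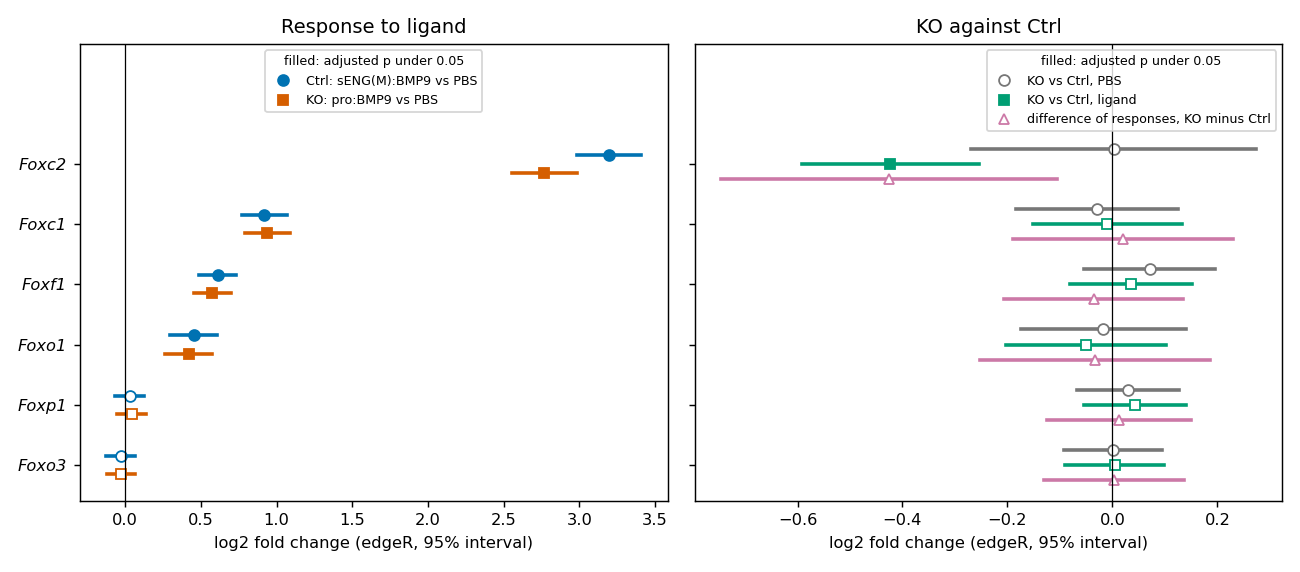
Log2 fold changes in edgeR with 95% intervals of the 6 genes that were well detected in PBS, for both ligand responses (left) and for KO against Ctrl cells and the difference of responses (right), with filled symbols for an adjusted p under 0.05. *Foxc2*, *Foxc1*, *Foxf1* and *Foxo1* are filled on the left, and *Foxc2* with ligand at -0.42 is the one filled symbol on the right.

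Per kilobase the genes changed order with ligand. In Ctrl PBS libraries the means ran from *Foxf1* (11.4 CPM per kilobase) over *Foxo3* (10.9), *Foxp1* (8.64), *Foxo1* (7.76) and *Foxc1* (7.33) to *Foxc2* (2.55) and *Foxa3* (0.0228). The first 5 overlap with their neighbours in that order, whereas *Foxc2* was apart from *Foxc1* and *Foxa3* from *Foxc2*. KO PBS libraries had the same order, again with the first 5 overlapping. With sENG(M):BMP9 *Foxc2* came first with 23.3 ± 3.97 CPM per kilobase (SD, n = 4), apart from *Foxf1* with 17.5 ± 1.54, and *Foxc1*, *Foxo3*, *Foxo1* and *Foxp1* followed with overlapping ranges. With pro:BMP9 *Foxf1* (17.9 ± 1.38) and *Foxc2* (17.4 ± 2.92) could not be ordered, since their ranges overlap.

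Promoter sequences are shown for *Foxc1*, *Foxo1* and *Foxa3*, which had higher counts with both ligands and have an entry in the RefSeq promoter table (GRCm38.p6), to let the letters upstream of these genes be read. Each was placed in GRCm39 by an exact match, runs 5′ to 3′ on the strand of the gene, and was cut where the annotated exon begins. Capitals mark GGCGCC, a GC-rich element that BMP-activated SMAD proteins can bind.
Foxc1, chr13:31990379-31990615, plus strand: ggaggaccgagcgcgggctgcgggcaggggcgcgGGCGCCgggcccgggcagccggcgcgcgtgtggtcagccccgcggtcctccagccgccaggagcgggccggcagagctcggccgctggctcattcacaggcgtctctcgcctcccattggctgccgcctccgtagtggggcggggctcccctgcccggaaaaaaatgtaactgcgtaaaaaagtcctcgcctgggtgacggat
Foxo1, chr3:52175508-52175756, plus strand: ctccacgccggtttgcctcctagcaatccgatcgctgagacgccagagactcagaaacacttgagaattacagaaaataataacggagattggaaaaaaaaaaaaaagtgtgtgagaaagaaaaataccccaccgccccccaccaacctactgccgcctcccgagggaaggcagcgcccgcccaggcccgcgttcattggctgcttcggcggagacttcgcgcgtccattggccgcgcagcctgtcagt
Foxa3, chr7:18757472-18757714, minus strand: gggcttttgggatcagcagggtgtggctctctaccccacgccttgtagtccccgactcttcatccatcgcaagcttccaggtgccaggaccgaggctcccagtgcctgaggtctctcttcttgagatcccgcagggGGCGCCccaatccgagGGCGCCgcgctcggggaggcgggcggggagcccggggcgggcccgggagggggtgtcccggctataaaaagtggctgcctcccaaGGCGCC

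Within the 250 bases before the start, GGCGCC occurred 3 times for *Foxa3*, at 114, 98 and 13 bases before the start, once for *Foxc1*, at 216 bases, and not for *Foxo1*. Of all 32851 promoter entries 9.59% hold it at least once on either strand (the motif reads the same on both). Of the genes that were not called, 2 of the 3 entries of *Foxp1* hold it and the entry of *Foxo3* holds none. These windows were not cut at exons and hold 146 exonic bases for *Foxo3* and 169, 17 and 165 for *Foxp1* entries 1 to 3. The start sites of *Foxp1* entries 2 and 3 lie 256206 and 494423 bases inside the gene. The longer BMP response element, GGCGCC followed after 5 further bases by GTCT, was in none of the 7 entries of the 5 genes and in 0.07% of all. TATAAA was found in the *Foxa3* promoter alone among the 7 entries, 36 bases before the start (12.4% of all promoters), and the forkhead motif GTAAACA in none (3.17% of all). CCAAT was in the windows of *Foxc1*, *Foxo1*, *Foxa3* and 1 entry of *Foxp1*, with 3 matches in that of *Foxo1* (33.8% of all). A match describes letters in this window and no bound site.

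Regulators of FOXO proteins moved in part. FOXO activity is set largely by kinases of the AKT and SGK families, by insulin receptor substrates upstream of them and by deacetylases, so a list of 25 such genes was taken along with the 2 FOXO genes. In Ctrl cells 7 of 25 rose and 0 fell, and in KO cells 4 rose and 0 fell, with list medians of 0.01 and 0.02 on the log2 scale against -0.01 and 0.00 for all genes. Of all tested genes 5.86% were called higher and 3.83% lower in Ctrl cells, and 3.68% and 1.92% in KO cells. *Sgk1*, a kinase that can phosphorylate FOXO3, rose by 1.495 in Ctrl and 1.43 in KO cells on the log2 scale (edgeR adjusted p = 4.55e-09 and 1.6e-08), from 196 to 569 and from 198 to 545 CPM. *Sgk3*, a kinase of the same family, rose by 0.91 and 0.67 (adjusted p = 6.2e-08 and 6.1e-06). *Irs2*, an adaptor of the insulin receptor, rose by 0.44 and 0.58 and *Sirt1*, a deacetylase, by 0.35 and 0.30, all past the threshold. Between KO and Ctrl cells edgeR called 0 of 25 in PBS and 0 with ligand (0 and 3 at an unadjusted p under 0.05, 0 and 1 by DESeq2). Over all 15693 tested genes, 1071 in PBS and 1454 with ligand had an unadjusted edgeR p under 0.05.

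Of 41 genes listed as FOXO targets, 37 were tested and went both ways. In Ctrl cells 4 rose and 3 fell, and in KO cells 5 rose and 3 fell, with list medians of 0.01 and 0.00 against -0.01 and 0.00 for all genes and shares of 5.86% higher and 3.83% lower (Ctrl) and 3.68% and 1.92% (KO) over all genes. *Pdk4*, a kinase that inhibits pyruvate dehydrogenase, rose by 1.08 and 1.10 on the log2 scale (edgeR adjusted p = 4.33e-08 and 6.62e-08). *Cited2*, a transcriptional co-regulator, had log2 changes of -0.85 and -0.78, *Bbc3*, the pro-apoptotic PUMA, of -0.65 and -0.53, and *Txnip*, an inhibitor of thioredoxin, of -0.47 and -0.33, all of them called lower in both genotypes. With ligand edgeR called 1 gene of the list between KO and Ctrl cells, *Txnip*, 0.21 higher in KO cells (adjusted p = 0.0414), where 8 had an unadjusted p under 0.05 and DESeq2 called 2. In that comparison 1454 of all 15693 tested genes had an unadjusted edgeR p under 0.05, and 0.0892% were called higher. *Irs2* is on both lists.

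Endothelial genes named as targets of FOXC with ETS factors also split. Of 12 tested (13 listed), 3 rose and 2 fell in each genotype, with medians of 0.03 in both, where 5.86% and 3.83% of all genes rose and fell in Ctrl and 3.68% and 1.92% in KO cells. *Tal1*, a haematopoietic and endothelial factor, rose by 1.08 and 0.86 on the log2 scale, *Kdr*, the VEGF receptor 2, by 0.92 and 0.76, and *Hey2*, an arterial Notch effector, by 1.44 and 1.86, the last from 0.818 and 0.572 CPM and thus from few counts. *Dll4*, a Notch ligand of arteries that FOXC proteins can activate, had log2 changes of -0.68 in Ctrl and -0.65 in KO cells (edgeR adjusted p = 0.000103 and 0.000267), opposite in sign to those of *Foxc1* and *Foxc2*. Only *Dll4* fell in both genotypes, and the other gene that fell was not the same in Ctrl and KO cells. The 10 listed FOXF1 targets gave 3 higher and 1 lower in Ctrl and 2 higher and 0 lower in KO cells, with medians of 0.14 and 0.08, beside the same shares over all genes. *Kdr* is on this list too, and *Acvrl1*, the BMP9 receptor, rose by 0.21 and 0.16 (edgeR adjusted p = 0.00113 and 0.0151). *S1pr1*, a receptor that stabilises endothelial junctions, had a log2 change of -0.15 and *Pecam1*, a junction protein, of 0.11 in Ctrl cells (edgeR adjusted p = 0.0104 and 0.0314). Between KO and Ctrl cells edgeR called 0 genes of these 2 lists in PBS and with ligand, where 3 and 4 of the 12 and 5 and 2 of the 10 had an unadjusted p under 0.05 and DESeq2 called 1, a FOXF1 target with ligand. Of all 15693 tested genes, 1071 in PBS and 1454 with ligand had an unadjusted edgeR p under 0.05.

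Other listed forkhead genes were screened in the same way. Of 44 forkhead genes listed, all were in the table, 25 were tested and 19 were not, 6 of the latter with no count and none with more than 22 counts in a library. Among the 18 tested genes outside the set, 3 passed the test in Ctrl cells and 2 in KO cells, all of them higher with ligand, where 5.86% and 3.68% of all genes were called higher. *Foxk1*, a metabolic regulator, rose by 0.23 and 0.21 on the log2 scale (edgeR adjusted p = 0.000446 and 0.0021), *Foxn2* by 0.26 and 0.25, to be read beside the 0.45 and 0.42 of *Foxo1*. *Foxp4*, a relative of *Foxp1* and with 18.7 CPM per kilobase the most abundant forkhead gene over all libraries, rose in Ctrl cells by 0.41 (edgeR adjusted p = 9.92e-05) and had a log2 change of 0.19 in KO cells (edgeR adjusted p = 0.0912). The difference of its responses was -0.22 (95% interval -0.40 to -0.04) with an adjusted p of 1.00, so it is not shown to differ between genotypes. *Foxk2* followed in level with 15.4 and *Foxk1*, after *Foxf1*, with 11.7 CPM per kilobase. Of these 25 forkhead genes *Foxc2* alone was called between KO and Ctrl cells, by edgeR and by DESeq2.

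**Figure D5:**
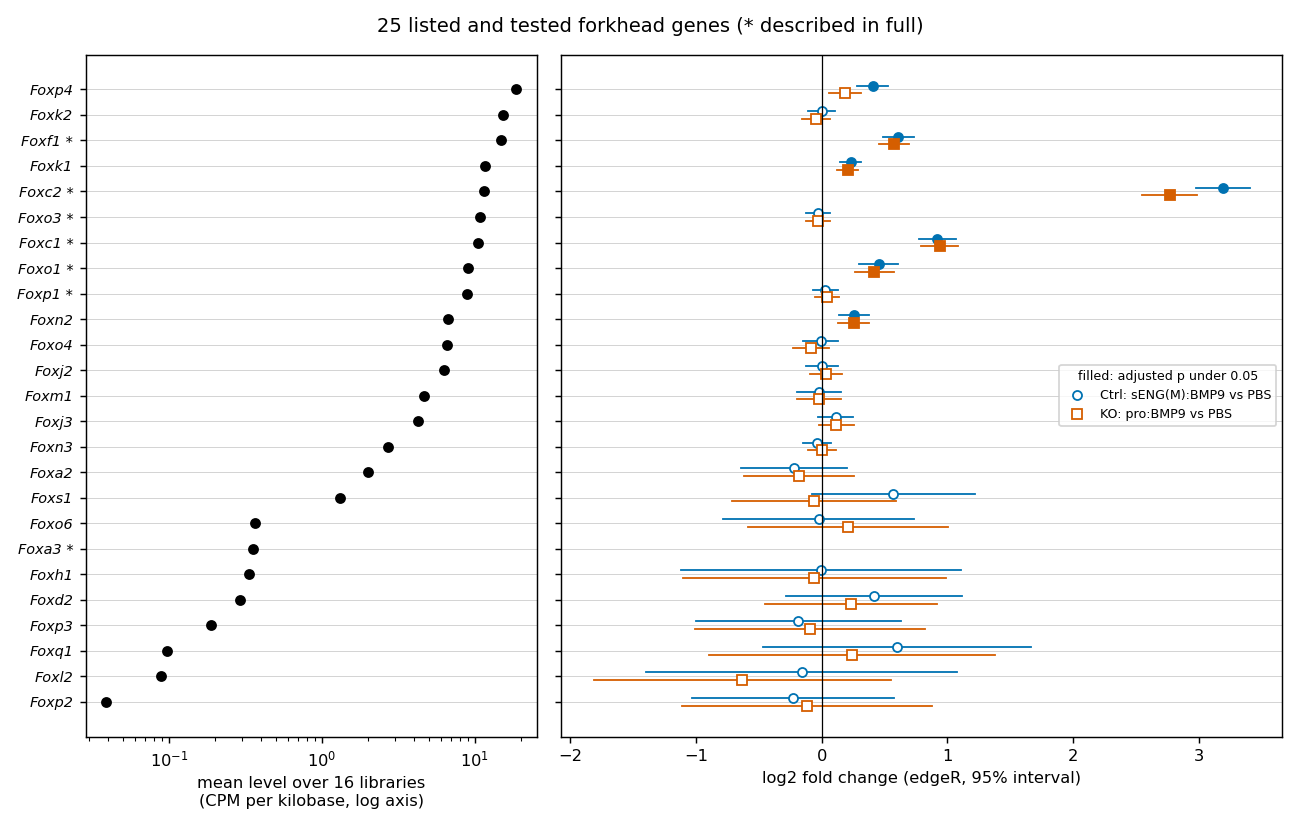
The 25 listed and tested forkhead genes ordered by mean level over 16 libraries (left, CPM per kilobase on a log axis) and their edgeR log2 fold changes with ligand and 95% intervals (right), circles for Ctrl and squares for KO cells, filled at an adjusted p under 0.05, an asterisk marking the 7 genes described in full. No fold change is drawn for *Foxa3*, and *Foxc2* lies farthest to the right.

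The genes nearest in pattern to each forkhead gene were taken from the correlation of log2 CPM after subtracting the mean of each isolation, over 16 libraries that fall into a PBS and a ligand cloud. These values describe likeness only. *Foxc2* was most like *Sox18*, *Bcor* and *Smurf2* (Pearson r 0.997, 0.997 and 0.995), *Foxc1* like *Sgk1*, *Pdk4* and *Id2* (0.994, 0.991 and 0.990), and *Foxf1* like *Dok4*, *Gata2* and *Sgk1* (0.987, 0.985 and 0.985). *Foxo1* was most like *Adgrg1*, *Hoxa5* and *Sox7* (0.970, 0.969 and 0.966) and *Foxa3* like *Mxi1*, *Zc3h15* and *Dyrk1a* (0.955, 0.953 and 0.952). For *Foxo3* the nearest were *Fbxo47*, *Thoc1* and *Col9a3* (0.856, 0.852 and 0.844) and for *Foxp1* *Robo1*, *Tmem229b* and *Gadd45gip1* (0.895, 0.878 and 0.854).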

How the data were processed

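Whole-transcriptome counts of 16 MLEC libraries were used. The authors deposited raw counts of reads per gene, with no normalisation, and the sources name stranded poly-A libraries, paired-end reads, HISAT2 2.0.5 with GRCm39 and featureCounts 1.5.0-p3 (submitters' processing notes). The quantile normalisation, ComBat and DESeq2 1.26.0 steps of the authors came later and are not in the counts. The annotation release and the strand setting of the counting are not given in the sources used here, and exons and overlaps come from a GENCODE annotation of GRCm39. Samples were grouped and numbered by their labels. Libraries of one number share an isolation (mean correlation of their deviations from the group means 0.757 over 24 pairs). The mean of -0.25 over the 72 other pairs is largely set by taking deviations from group means. No 2 libraries of a group agreed within sampling noise, and pairs from different groups were not checked for this.

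Genes were filtered with filterByExpr of edgeR 4.0.16 in R 4.3.3 (minimum count 10, minimum total count 15), scaled by TMM and fitted to all 16 libraries with the isolation as a block. The 5 comparisons were ligand against PBS in each genotype, KO against Ctrl cells in each condition and the difference of responses. The fit was also run on counts simulated from its own estimates. Such a run cannot show how the fit does where its model does not hold. Single-isolation differences use log2 CPM with a prior count of 2, and percentages and levels use CPM with none. With the isolation as a block, p-values measure how differences between groups vary from isolation to isolation. Whether the isolations are separate animals or pools is not stated, so it is not known if that is a spread between animals.

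The 7 genes and the gene lists, written from general knowledge, were chosen with earlier results of these data known. 1 item of the lists is not reported here. Named are the 7 genes, other forkhead genes past the threshold or among the 3 highest per kilobase, up to 4 genes of smallest adjusted p per list, tested genes within 100 kb and the 3 genes of highest correlation. *Cdh5*, *Lyve1*, *Prox1*, *Sftpc*, *Foxl1*, *Col3a1*, *Dcn* and *Pdgfrb* were named after their values were seen. Alternatives were no block, DESeq2 1.42.0 with the block, RLE size factors, no filter, the 8 libraries alone, leaving out each isolation and levels not divided by length. Library totals of 14869115 to 17242117 counts leave genes of a few counts such as *Foxa3* imprecise.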

Additional observations from a re-analysis of the deposited data

Results flagged for a closer look

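Of 28 groups of 4 libraries screened for a value far from the others, 2 stood out, where chance gives about 1 in 20. *Foxc2* in KO pro:BMP9 libraries was 59.4 CPM in isolation 2 and at most 44.1 CPM in the others, a gap of 0.939 of the range of the group. Isolation 2 was also the highest for *Foxc2* in the other groups, and without it the KO against Ctrl difference with ligand was -0.43 with an edgeR adjusted p of 0.15. *Foxa3* in Ctrl PBS libraries had 0 counts in isolation 1 and 1 count, 0.0600 CPM or more, in each of the others, which is a difference of 1 count.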

How the results depend on the processing

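Of 303 fold changes of the 7 genes under alternatives, 291 kept their side of the threshold and 12 lost their call. The sign was kept in 281 and changed in 22, 0 of which belong to a difference that had been called. The counts in this section include *Foxa3*, whose calls were partly set by the filter on low counts and stand as a description. With no replicate block, which drops the pairing by isolation, 167, 91, 1 and 1 genes were called in the Ctrl response, the KO response, KO against Ctrl in PBS and the same with ligand, and 2, 2 and 0 of the 7 genes in the Ctrl response, the KO response and KO against Ctrl with ligand. In that fit *Foxc1* (adjusted p = 0.115 and 0.199) and *Foxo1* (adjusted p = 0.944 and 1.00) lost their calls in both responses, as did *Foxa3* (adjusted p = 0.0516 and 0.286) and *Foxc2* in KO against Ctrl with ligand. The other lost calls in that count were those of *Foxc2* without isolations 1, 2 or 3 and of *Foxa3* in KO cells without isolations 1 or 2. DESeq2 gave no adjusted p for *Foxa3* in the KO response, and with the 8 libraries of a response alone *Foxa3* did not pass the filter, which left 4 of the 7 genes called in each response.

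KO against Ctrl in PBS, with 3 genes called, gave 7 with DESeq2, 204 with no filter on low counts, 1 with the 8 libraries alone and 1 to 69 when an isolation was left out, the most without isolation 4. With ligand, 40 genes became 141 with DESeq2, 517 with no filter and 6 to 175 when an isolation was left out, again most without isolation 4, and 0 to 1 of the 7 genes. The KO response had 573 to 745 genes when an isolation was left out, fewest without isolation 2, and 878 with all. The difference of responses had 52 genes with no filter and 0 otherwise. The cause was not tested.

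By mean level over all libraries, the order per kilobase was *Foxf1*, *Foxc2*, *Foxo3*, *Foxc1*, *Foxo1*, *Foxp1* and *Foxa3*. Without division by length *Foxp1* came in place 1, *Foxo3* in 2, *Foxo1* in 3, *Foxf1* in 5 and *Foxc2* in 6. When an isolation was left out, places ran from 3 to 4 for *Foxc1*, 2 to 3 for *Foxc2*, 5 to 6 for *Foxo1*, 2 to 4 for *Foxo3* and 5 to 6 for *Foxp1*. Depth limits *Foxa3*, and the other 6 genes had 81 counts or more in every library.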
